A study of Mus musculus with 16 samples.

Results

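The Cyp2b genes of mouse liver, Cyp2b10, Cyp2b9 and Cyp2b13, were followed in 16 liver libraries from humanized and wild-type mice given TCPOBOP or vehicle. These 3 genes were taken by symbol from the deposited count table, each as its RefSeq transcript with the highest mean count, among 24970 genes in all. Only Cyp2b10 was counted often enough to enter the fit over 12913 genes. The table also held Cyp2b19 and Cyp2b23, which completed the 5 Cyp2b symbols with a value. Cyp2b10 was 6.04-fold higher with TCPOBOP in humanized liver and 66.2-fold higher in wild-type liver. Cyp2b9 exceeded 3 counts in only the 2 wild-type libraries numbered 2, and Cyp2b13 never exceeded 6 counts in a library.

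Each group had 4 mice. The groups were humanized PXR-CAR-CYP3A4/3A7 mice on TCPOBOP, humanized mice on vehicle, wild-type C57BL/6 Ntac mice on TCPOBOP and wild-type mice on vehicle. TCPOBOP was given at 3 mg/kg, in 2 administrations with 24 h between them, over 48 h of treatment, and the vehicle was corn oil with 2% DMSO. The labels state neither sex, age nor sequencing batch, nor how the human genes were inserted and whether the mouse genes were removed. Nothing in the labels pairs mice across groups.

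Cyp2b enzymes are cytochromes P450 of the endoplasmic reticulum that hydroxylate lipophilic drugs, pollutants, steroids and fatty acids. Cyp2b10 is the classical target of the constitutive androstane receptor (CAR, encoded by Nr1i3), a nuclear receptor that moves into the hepatocyte nucleus and binds DNA with the retinoid X receptor. TCPOBOP is a synthetic ligand that activates mouse CAR strongly and human CAR poorly. The pregnane X receptor (PXR, encoded by Nr1i2) binds overlapping DNA elements. Cyp2b9 and Cyp2b13 are known in mouse liver as female-biased genes under growth hormone control.

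The members are neighbours on mouse chromosome 7 (mm10, that is GRCm38). Cyp2b10 (NM_009999) spans 25897658 to 25926624, Cyp2b13 (NM_007813) spans 26061388 to 26096197 and Cyp2b9 (NM_010000) spans 26173350 to 26210661. Their RefSeq transcripts were 1916, 1875 and 1876 bases long. Aligned over their shared length, the Cyp2b9 and Cyp2b13 transcripts were identical at 91.9% of bases, with a longest exact shared run of 113 bases. Cyp2b10 was identical to Cyp2b13 at 89.2% of bases and to Cyp2b9 at 87.9%. Of the 50-base stretches of Cyp2b10, 7.8% also occurred in Cyp2b13 and 0.5% in Cyp2b9. The labels do not state how reads that fit several genes were counted.

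The promoter windows of the members are shown so that the inducible gene can be set beside the pair with few counts. The windows come from the RefSeq table for GRCm38.p6, cover 250 bases before and 50 bases from the transcript start, and lie on the plus strand. They are chr7:25897408-25897707 for Cyp2b10, chr7:26173159-26173458 for Cyp2b9 and chr7:26061245-26061544 for Cyp2b13. For Cyp2b9 and Cyp2b13 the transcript start of that table lies downstream of the gene start given above. Capitals mark matches to the motifs described after the sequences.
Cyp2b10: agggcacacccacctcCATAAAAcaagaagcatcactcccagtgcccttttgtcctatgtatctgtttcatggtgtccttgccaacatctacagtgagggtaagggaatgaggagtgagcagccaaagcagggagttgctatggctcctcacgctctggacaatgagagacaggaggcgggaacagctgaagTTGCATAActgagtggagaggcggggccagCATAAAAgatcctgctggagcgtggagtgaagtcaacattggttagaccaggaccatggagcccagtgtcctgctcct
Cyp2b9: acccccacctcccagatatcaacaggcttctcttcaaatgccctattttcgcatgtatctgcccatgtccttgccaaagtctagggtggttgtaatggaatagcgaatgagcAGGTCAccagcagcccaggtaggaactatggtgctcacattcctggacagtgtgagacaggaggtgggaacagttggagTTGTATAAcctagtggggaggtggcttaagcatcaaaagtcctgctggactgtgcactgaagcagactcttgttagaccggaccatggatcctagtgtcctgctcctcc
Cyp2b13: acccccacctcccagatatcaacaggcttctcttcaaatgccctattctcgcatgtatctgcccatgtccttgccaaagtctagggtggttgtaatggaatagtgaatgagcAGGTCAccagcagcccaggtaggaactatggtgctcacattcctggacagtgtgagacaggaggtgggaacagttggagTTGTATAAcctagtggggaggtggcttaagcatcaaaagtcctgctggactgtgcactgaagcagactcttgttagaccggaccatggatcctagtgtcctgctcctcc

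The windows of Cyp2b9 and Cyp2b13 were the same at 298 of 300 bases, 99.3%. They differed by the substitutions T48C and C104T, with the Cyp2b9 base first and positions counted from 1 at the 5′ end of the window. The Cyp2b10 window matched either of them at 229 of 286 aligned bases, 80.1%. The nuclear receptor half-site AGGTCA, searched on both strands as were all motifs, occurred in the Cyp2b9 and Cyp2b13 windows at -138 from the transcript start and not in the Cyp2b10 window. The Cyp2b19 and Cyp2b23 windows held it at -121 and -164. It occurred in 16.3% of all 32851 windows of this length. The direct repeat of that half-site with a spacer of 4 bases, the DR4 element that CAR and PXR can bind, was in none of the Cyp2b windows and in 0.0152% of all windows. The STAT5 motif TTCNNNGAA was in none of the Cyp2b windows either, and in 8.3% of all windows. The octamer TTGCATAA, which resembles a C/EBP site, lay at -58 in Cyp2b10, where Cyp2b9 and Cyp2b13 carried TTGTATAA at -59. Cyp2b19 and Cyp2b23, which also had few counts, carried TTGCATAA as well, at -40 and -85. These octamers occurred in 0.743% and 0.581% of all windows. The TATA-like heptamer CATAAAA occurred at -234 and -28 in Cyp2b10 and in neither of the other members. It also occurred in the windows of Cyp2b19 at -10 and Cyp2b23 at -55, and in 4.19% of all windows, so neither this heptamer nor TTGCATAA set Cyp2b10 apart from these genes. In Cyp2b10 it does not overlap the octamer match. The phenobarbital-responsive enhancer of Cyp2b10, known from earlier work, lies farther upstream than these windows reach.

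Total counts over all rows were 14019983 to 16755802 per library for humanized mice on TCPOBOP, and for humanized mice on vehicle they were 12612610 to 16904182. For wild-type mice on TCPOBOP the range was 30228724 to 37998473 and for those on vehicle 11827994 to 19483951, so the greater depth coincided with the wild-type TCPOBOP group. Values below are in CPM, counts scaled by the TMM-adjusted total of each library. Mouse Nr1i3 was at 1.63 to 5.02 CPM in the 8 humanized livers and at 46.2 to 107 CPM in the 8 wild-type livers. Mouse Nr1i2 averaged 18.3 and 19.0 CPM in the humanized groups against 118 and 136.5 CPM in the wild-type groups. Human transcripts were not analysed here. The hepatocyte markers Alb, Apoa1, Ttr, Apob, Cps1 and Hnf4a were detected in all groups. In bulk liver, fewer cells of a type and less RNA per cell cannot be told apart.

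In humanized liver Cyp2b10 rose with TCPOBOP. The TCPOBOP livers held 79.7, 63.3, 201 and 76.3 CPM of Cyp2b10, and the vehicle livers 23.1, 14.9, 15.6 and 16.1 CPM. The groups did not overlap, and TCPOBOP replicate 3 stood apart above the other TCPOBOP livers. The means were 105 ± 64.4 CPM with TCPOBOP and 17.4 ± 3.83 CPM with vehicle (SD, n = 4 each). The log2 change was 2.59 ± 0.42 (SE, edgeR adjusted p = 0.00434), and without TCPOBOP replicate 3 it was 2.07 (edgeR adjusted p = 0.0102). Of the members, 1 of 1 tested was called in this comparison, where 2.52% of all 12913 genes were called, 1.32% as higher and 1.19% as lower, and 9.95% had groups without overlap. By size of change Cyp2b10 stood at place 37 of the 325 called genes and by p at place 28. It took 0.0057 to 0.0205% of the gene-level counts with TCPOBOP and 0.00144 to 0.00253% with vehicle. The summed hepatocyte markers were at 45055 to 54899 CPM with TCPOBOP and 44855 to 56329 CPM with vehicle, and 0 of 6 passed the edgeR test or an unadjusted p of 0.05. Of 5 stellate cell markers 1 was lower, and their summed level was 64.3 to 184 CPM with TCPOBOP and 197 to 213 CPM with vehicle, none at 0. Their part in the Cyp2b10 change was not tested.

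In wild-type liver Cyp2b10 rose with TCPOBOP to a far higher level. In TCPOBOP livers Cyp2b10 was at 2871, 3561, 3325 and 3044 CPM, and in vehicle livers at 16.4, 37.3, 89.9 and 49.3 CPM. All 4 TCPOBOP libraries lay far above all vehicle libraries, and the TCPOBOP libraries differed less among themselves in proportion. The group means were 3200.2 ± 305 CPM with TCPOBOP and 48.2 ± 30.9 CPM with vehicle (SD, n = 4 each). The log2 change was 6.05 ± 0.49 (SE), and the edgeR quasi-likelihood test with Benjamini-Hochberg adjustment gave an adjusted p of 2.44e-07. The same member was called here, where 13.1% of all genes were called, 8.1% as higher and 4.99% as lower. The groups did not overlap for 20.9% of all genes. By size of change Cyp2b10 stood at place 14 of the 1691 called genes, and by p at place 19. It took 0.294 to 0.356% of the gene-level counts of a TCPOBOP library and 0.00164 to 0.00915% of a vehicle library. In the TCPOBOP libraries it stood at places 28 to 37 by count. The summed hepatocyte markers were at 26296 to 38719.8 CPM with TCPOBOP and 57114 to 89802 CPM with vehicle, with 2 of 6 lower, Alb by a log2 change of -1.56 (adjusted p = 0.000271) and Ttr by -0.72 (adjusted p = 0.0378). Their part in the Cyp2b10 change was not tested.

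**Figure D1:**
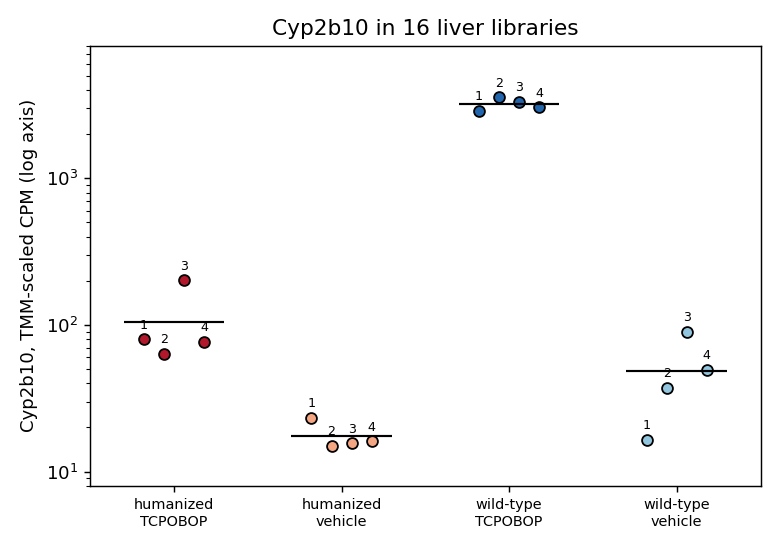
Cyp2b10 in TMM-scaled CPM on a log axis in the 4 groups, with a point for each mouse labelled by its replicate number and a line at each group mean. The humanized TCPOBOP livers (63.3 to 201 CPM) lie above the humanized vehicle livers (14.9 to 23.1 CPM) and overlap the wild-type vehicle livers (16.4 to 89.9 CPM), while the wild-type TCPOBOP livers lie at 2871 to 3561 CPM, above all others.

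The TCPOBOP effect on Cyp2b10 differed between the strains. The strains differed in mouse Nr1i3, in mouse Nr1i2 and in the human genes for which the humanized strain is named. The parts of these in the Cyp2b10 difference cannot be told apart. The interaction, the humanized effect minus the wild-type effect, was -3.45 ± 0.58 on the log2 scale (SE, edgeR adjusted p = 0.00141), so the humanized effect was 10.96-fold smaller. Of all genes, 7.46% had an interaction past the threshold, 3.98% as lower and 3.48% as higher. The interaction uses the same 16 libraries as the strain-by-strain effects.

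Under TCPOBOP, Cyp2b10 was 30.4-fold lower in humanized than in wild-type liver. Each of the 4 humanized libraries lay below every wild-type library. The log2 difference was -4.93 ± 0.46 (SE, edgeR adjusted p = 1.12e-06), in a comparison where 24.6% of genes were called, 12.8% as lower and 11.8% as higher, and 27.4% had groups without overlap. Of 5 sinusoidal endothelial markers 2 were lower here, with a summed level of 74.6 to 216 CPM in humanized and 235 to 286 CPM in wild-type livers. Of 6 hepatocyte markers 2 were higher, with a summed level of 45055 to 54899 CPM in humanized and 26296 to 38719.8 CPM in wild-type livers. Of 5 stellate cell markers 1 was lower (64.3 to 184 CPM in humanized and 174 to 238 CPM in wild-type livers), and of 5 cholangiocyte markers 1 was higher (30.01 to 72.3 CPM in humanized and 24.8 to 30.2 CPM in wild-type livers). No marker was at 0 in either group, and their part in the Cyp2b10 difference was not tested. Under vehicle, Cyp2b10 was 2.77-fold lower in humanized liver, with a log2 difference of -1.47 ± 0.41 (SE, edgeR adjusted p = 0.0253) and 3 of 4 humanized libraries below all wild-type libraries. Here 16.1% of genes were called, 8.95% as lower and 7.11% as higher, and 26.4% had groups without overlap. This call depended on single livers, since the edgeR adjusted p was 0.0514, 0.0513, 0.0711 and 0.0696 without humanized vehicle replicate 1, 2, 3 and 4 in turn. Without wild-type vehicle replicate 3, the highest of its group, the difference was -0.98 (edgeR adjusted p = 0.0903). Markers of several cell types moved in the same comparison. Of the Kupffer cell markers Clec4f, Adgre1, Cd5l, Timd4, Marco and Vsig4, 5 of 6 were lower, and their summed level was 163 to 301 CPM in humanized and 359 to 766 CPM in wild-type vehicle livers. Of 5 sinusoidal endothelial markers 1 was lower and all 5 had an unadjusted p under 0.05, with a summed level of 133 to 162 CPM in humanized and 248 to 432 CPM in wild-type livers. Of 6 hepatocyte markers 1 was lower (44855 to 56329 CPM in humanized and 57114 to 89802 CPM in wild-type livers). Of 5 stellate cell markers 1 was lower (197 to 213 CPM in humanized and 184 to 258 CPM in wild-type livers), and of 5 cholangiocyte markers 1 was higher (36.9 to 59.8 CPM in humanized and 34.0 to 38.5 CPM in wild-type livers). None was at 0 in either group. Their part in the Cyp2b10 difference was not tested.

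Per kilobase of transcript, the mean Cyp2b10 level was highest with TCPOBOP in wild-type liver, at 1670.3 CPM per kb. It was next at 54.9 CPM per kb with TCPOBOP in humanized liver, then at 25.2 CPM per kb with vehicle in wild-type liver, and lowest at 9.09 CPM per kb with vehicle in humanized liver. The humanized TCPOBOP and wild-type vehicle ranges overlapped, and the wild-type vehicle range overlapped the humanized vehicle range through its replicate 1. Summed per kilobase over the 5 Cyp2b genes, Cyp2b10 made up 99.31 to 100% with TCPOBOP and 99.09 to 100% with vehicle in humanized livers, and 99.94 to 99.99% with TCPOBOP in wild-type livers. In wild-type vehicle livers it made up 88.88 to 100%, with the lowest value in replicate 2.

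Cyp2b9, a steroid-hydroxylating P450 that is high in female mouse liver, had 3, 0, 2 and 0 counts in humanized TCPOBOP and 2, 0, 0 and 0 counts in humanized vehicle livers. It had 0, 35, 2 and 2 counts in wild-type TCPOBOP and 2, 48, 2 and 0 counts in wild-type vehicle livers. The same replicate number, 2, was high in both wild-type groups, at 1.57 CPM with TCPOBOP and 4.57 CPM with vehicle, while each other library held 3 counts or fewer. The group means were 0.162 ± 0.211 and 0.0518 ± 0.104 CPM in humanized TCPOBOP and vehicle livers, and 0.439 ± 0.753 and 1.26 ± 2.21 CPM in wild-type TCPOBOP and vehicle livers (SD, n = 4 each). The TCPOBOP minus vehicle difference was 0.110 CPM in humanized liver (two-sided exact permutation p = 0.714) and -0.823 CPM in wild-type liver (exact permutation p = 0.571). The humanized minus wild-type difference was -1.21 CPM under vehicle (exact permutation p = 0.257) and -0.277 CPM under TCPOBOP (exact permutation p = 0.800). With 4 against 4 libraries the smallest p of this test is 0.0286. Without wild-type vehicle replicate 2 the wild-type TCPOBOP effect turned to 0.278 CPM (exact permutation p = 0.914), and the strain difference under vehicle was -0.109 CPM (exact permutation p = 0.371). Without wild-type TCPOBOP replicate 2 the strain difference under TCPOBOP turned to 0.0987 CPM (exact permutation p = 0.629). An edgeR fit without the filter on low counts called no Cyp2b9 difference, with adjusted p of 0.835 for TCPOBOP in humanized liver, 0.482 for TCPOBOP in wild-type liver, 0.673 for the interaction, and 0.0799 and 0.518 for the strains under vehicle and TCPOBOP.

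Cyp2b13, the close relative of Cyp2b9, had 0, 0, 2 and 0 counts in humanized TCPOBOP livers and none in humanized vehicle livers. It had 3, 6, 6 and 3 counts in wild-type TCPOBOP livers and no count in any wild-type vehicle liver. In humanized liver the TCPOBOP minus vehicle difference was 0.0512 CPM (exact permutation p = 1.0), and it rested on replicate 3, the humanized liver with the most Cyp2b10. Every wild-type TCPOBOP liver lay above every wild-type vehicle liver, at 0.144 to 0.281 CPM. The mean was 0.214 ± 0.0700 CPM with TCPOBOP in wild-type liver (SD, n = 4), a difference of 0.214 CPM from vehicle with an exact permutation p of 0.0286, the smallest it can give. With its 18 TCPOBOP counts taken as exact, Cyp2b13 was 2.83-fold above a floor of 3 counts over the vehicle group. The unfiltered edgeR fit did not call it (adjusted p = 0.0511). The humanized minus wild-type difference was -0.163 CPM under TCPOBOP (exact permutation p = 0.0857), and without humanized TCPOBOP replicate 3 it was -0.214 CPM (exact permutation p = 0.0286). Under vehicle both strains were at 0 counts.

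The low counts of Cyp2b13 appeared in the livers with the most Cyp2b10, with which it shares sequence, and its value is uncertain for that reason. In humanized TCPOBOP livers Cyp2b13 made up 0.0555% of the counts of both genes (exact 95% interval 0.00672 to 0.2%), from 2 counts. In wild-type TCPOBOP livers it made up 0.00676% (0.00401 to 0.0107%), from 18 counts beside 266333 of Cyp2b10. In wild-type vehicle livers there were 0 Cyp2b13 counts beside 2004 Cyp2b10 counts, a share of 0% with an exact 95% upper bound of 0.184%, so a share as low as that with TCPOBOP was not detectable there. Cyp2b9 made up 0.0146% (0.0104 to 0.02%) of its counts and those of Cyp2b10 in wild-type TCPOBOP and 2.53% (1.89 to 3.3%) in wild-type vehicle livers, mostly from the libraries numbered 2. Intervals and floors cover counting error only, and counts of a library may be halved values.

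Cyp2b19 and Cyp2b23, the other family genes with a value, also had few counts. In all 8 humanized livers there was 1 count of Cyp2b19 and none of Cyp2b23. Cyp2b19 had 1, 2, 6 and 2 counts and Cyp2b23 had 0, 3, 6 and 3 counts in wild-type TCPOBOP livers, against no count in wild-type vehicle livers. With their TCPOBOP counts taken as exact, Cyp2b19 was 1.73-fold and Cyp2b23 1.88-fold above a floor of 3 counts over the wild-type vehicle group. Counting error of the TCPOBOP counts is not included. Both also share sequence with Cyp2b10, at 86.6% and 87.8% of aligned transcript bases, so their values are uncertain like that of Cyp2b13. Neither Cyp2b19 nor Cyp2b23 was called in the unfiltered edgeR fit (adjusted p = 0.143 and 0.185).

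**Figure D2:**
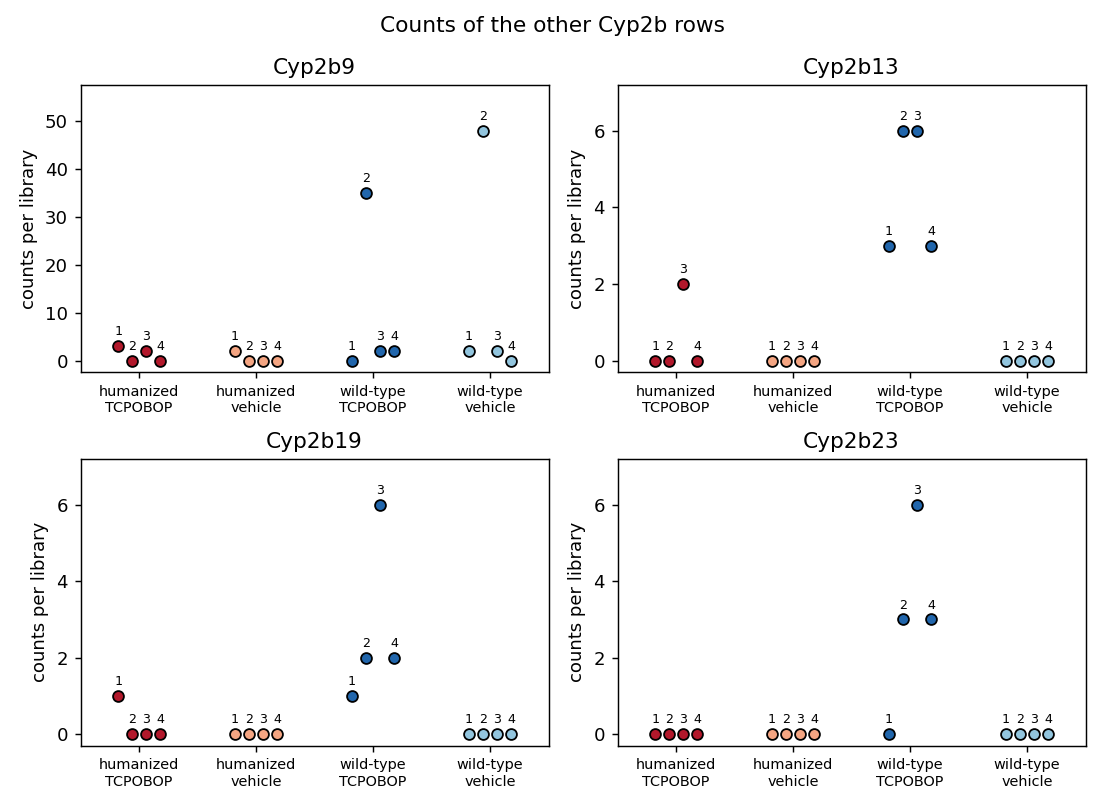
Counts per library of Cyp2b9, Cyp2b13, Cyp2b19 and Cyp2b23 in the 4 groups, with a point for each mouse labelled by its replicate number. Cyp2b9 reaches 35 and 48 counts in the wild-type libraries numbered 2, and the other 3 genes stay at 6 counts or fewer, with nearly all of them in wild-type TCPOBOP livers.

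Of 10 listed neighbours 7 were tested, and Cyp2a5, a coumarin-hydroxylating P450, was the 1 that rose with TCPOBOP in wild-type liver. Of all genes 8.1% rose there, and 1 of 7 does not set the neighbours apart from that share. In humanized liver Cyp2a5 was at 1656, 946, 1801 and 1522 CPM with TCPOBOP and 899, 649, 1189 and 618 CPM with vehicle. These groups overlapped, and the log2 change of 0.82 did not pass (edgeR adjusted p = 0.167). In wild-type liver Cyp2a5 was at 2300.1, 4012, 2376 and 3307 CPM with TCPOBOP and 534, 551, 219 and 313 CPM with vehicle. These groups were well apart, with a log2 change of 2.89 ± 0.33 (SE, edgeR adjusted p = 1.01e-05). The interaction of Cyp2a5 passed, at -2.07 ± 0.44 (SE, edgeR adjusted p = 0.00706). Unlike Cyp2b10, Cyp2a5 was higher in humanized than in wild-type liver under vehicle (log2 1.05, edgeR adjusted p = 0.0304), and it was lower under TCPOBOP (-1.02, edgeR adjusted p = 0.0236).

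No neighbour passed the edgeR test for TCPOBOP in humanized liver, where 2.52% of all genes were called, and 3 of the 7 had an unadjusted p under 0.05. The neighbours had a median log2 change of 0.44 in humanized liver, against 0.02 over all genes tested, and of 0.34 in wild-type liver, against -0.02 over all genes. Cyp2a12, another neighbour, had log2 changes of 0.44 in humanized and 0.47 in wild-type liver (edgeR adjusted p = 0.253 and 0.141). Cyp2a22 had log2 changes of 0.30 in humanized and 0.34 in wild-type liver, and Cyp2g1, an olfactory P450, of -0.05 in humanized and 0.58 in wild-type liver. Cyp2a4, a female-biased steroid hydroxylase, had log2 changes of 0.64 ± 1.19 in humanized and -1.92 ± 1.03 in wild-type liver (SE). Cyp2f2, a P450 of lung and periportal liver, had log2 changes of 0.72 in humanized and -0.73 in wild-type liver (edgeR adjusted p = 0.244 and 0.158), and it was lower in humanized than in wild-type liver under vehicle (-1.17, edgeR adjusted p = 0.0242). Cyp2s1 had log2 changes of -1.58 in humanized and -0.91 in wild-type liver and was lower in humanized liver under TCPOBOP (-2.48, edgeR adjusted p = 0.0436). These values rest on few counts, 4 in all over the humanized TCPOBOP livers (mean 0.129 CPM) and 14 over the humanized vehicle livers. Cyp2t4 was too low to be tested, at group means of 0.0469 to 0.351 CPM.

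**Figure D3:**
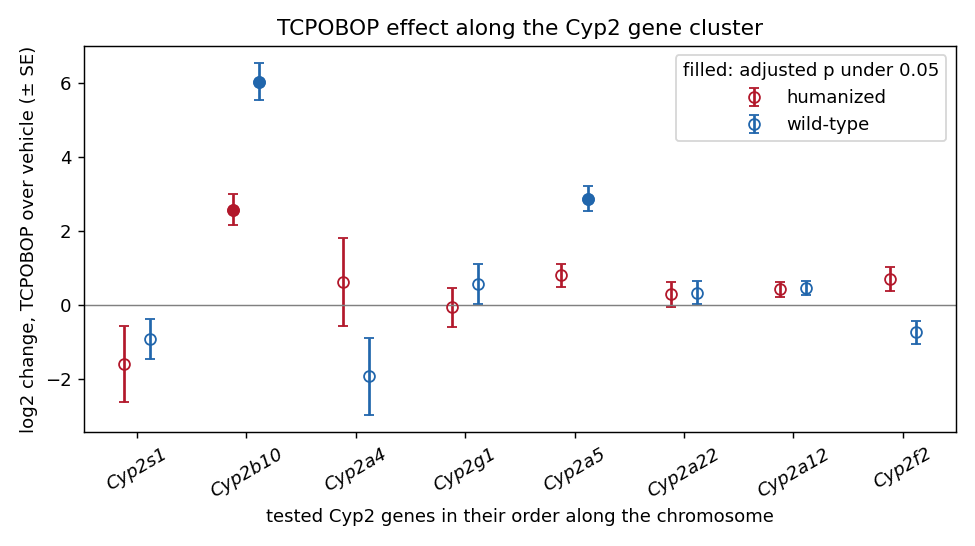
Log2 change with TCPOBOP over vehicle (± SE of the edgeR fit) for Cyp2b10 and its 7 tested Cyp2 neighbours in chromosome order, with humanized liver left of wild-type liver and filled points past an adjusted p of 0.05. Cyp2b10 passes in both strains, Cyp2a5 only in wild-type liver (the interaction also passes), and the other genes pass in neither.

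A list of 30 other genes that respond to xenobiotics in liver was set beside Cyp2b10. The 29 tested had a median log2 change of 0.28 with TCPOBOP in humanized liver, against 0.02 over all genes. In that comparison, where 1.32% of all genes rose and 1.19% fell, 6 of the 29 rose and none fell. These were the sulfotransferase gene Sult5a1 (1.29 ± 0.21, edgeR adjusted p = 0.00434), Cyp1a2 (1.10 ± 0.20, edgeR adjusted p = 0.0086), the aldehyde dehydrogenase genes Aldh1a7 (0.63, edgeR adjusted p = 0.0366) and Aldh1a1 (1.09, edgeR adjusted p = 0.0493), Cyp2c55 (1.21, edgeR adjusted p = 0.0399) and Cyp2c50 (1.42, edgeR adjusted p = 0.0429). The value of 2.59 for Cyp2b10 was above each of these. In wild-type liver, where 8.1% of all genes rose and 4.99% fell with TCPOBOP, 25 of the 29 rose and 1 fell. Their median log2 change was 1.84 against -0.02 over all genes. The glutathione transferase genes Gstm3 (6.71 ± 0.30, edgeR adjusted p = 2.06e-10) and Gsta1 (8.83 ± 0.53, edgeR adjusted p = 8.26e-09) and the P450 gene Cyp2c55 (6.12 ± 0.35, edgeR adjusted p = 6.22e-09) had log2 changes above the 6.05 of Cyp2b10. Gsta1 had 6 counts over the wild-type vehicle livers (mean 0.139 CPM), so the size of its change rests on few counts. Cyp2c55 lay above Cyp2b10 by less than the SE of either. The carboxylesterase gene Ces2a rose by 3.41 ± 0.21 (edgeR adjusted p = 8.81e-09). The interaction had a median of -1.28 over the 29, against 0.004 over all genes. It was lower for 12 and higher for 1 of the 29, beside 3.98% and 3.48% of all genes. It was -6.91 for Gstm3, -4.91 for Cyp2c55 and -3.03 for Ces2a, beside -3.45 for Cyp2b10. Under TCPOBOP 22 of the 29 were lower and 1 was higher in humanized than in wild-type liver. Of all genes, 12.8% were lower and 11.8% higher in that comparison. Mouse Cyp3a11 is among the 22. It averaged 0.553 and 0.560 CPM in humanized TCPOBOP and vehicle livers, against 15945 and 2984 CPM in wild-type TCPOBOP and vehicle livers. Its transcript was thus nearly absent in the humanized livers under both treatments.

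**Figure D4:**
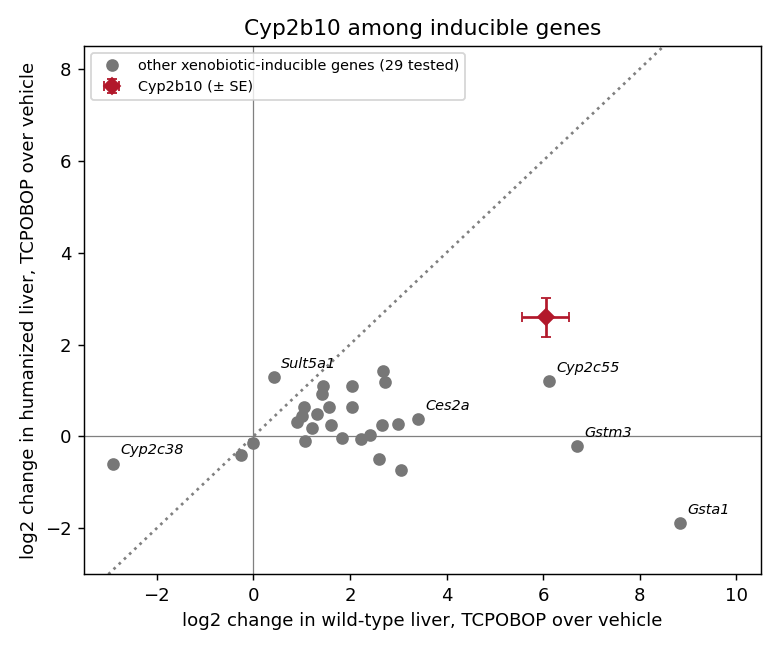
Log2 change with TCPOBOP over vehicle in humanized liver (vertical) against wild-type liver (horizontal) for 29 xenobiotic-inducible genes (grey) and Cyp2b10 (red, ± SE), with a dotted line of equal change. Cyp2b10 lies at 2.59 in humanized and 6.05 in wild-type liver, below the line and higher on the vertical axis than each grey point, while Gstm3 and Gsta1 lie farther right and at or below 0 on the vertical axis.

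Of 22 genes of the receptors and their partners, all tested, 0 passed the edgeR test with TCPOBOP in humanized liver, and 7 had an unadjusted p under 0.05. In wild-type liver 2 rose and 2 fell, beside 8.1% and 4.99% of all genes. The receptor gene Nr1i3 fell by 0.94 on the log2 scale (edgeR adjusted p = 0.00198) and the coactivator gene Ppargc1a fell by 1.12 (edgeR adjusted p = 0.0227). The chaperone genes Hsp90ab1 (0.79, edgeR adjusted p = 0.0334) and Hsp90aa1 (1.34, edgeR adjusted p = 0.0387), whose products hold CAR in the cytoplasm, rose. Beside the lower Cyp2b10 of humanized livers under vehicle, 5 of the 22 were lower and 1 was higher. Of all genes, 8.95% were lower and 7.11% higher in that comparison. The 5 included Nr1i3 and Nr1i2, the mouse genes of the receptors for which the humanized strain is named. Nr1i3 was lower by a log2 difference of -5.50 and Nr1i2 by -2.85, and Rxra, the heterodimer partner, by -0.61 (edgeR adjusted p = 0.0282).

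Of 13 genes that supply P450 enzymes with electrons and heme, 1 rose with TCPOBOP in humanized liver, the heme synthesis gene Cpox (0.84, edgeR adjusted p = 0.0278). In wild-type liver 3 rose, among them cytochrome b5 Cyb5a (1.17, edgeR adjusted p = 0.000363) and the P450 reductase gene Por (1.26, edgeR adjusted p = 0.0105). The 13 genes had median log2 changes of 0.26 in humanized and 0.24 in wild-type liver. Of all genes, 1.32% rose in humanized and 8.1% in wild-type liver.

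Growth hormone controls Cyp2b9 and Cyp2b13 in mouse liver. Of 13 genes for growth hormone and STAT5 signalling, 0 passed the edgeR test with TCPOBOP in humanized liver and 1 had an unadjusted p under 0.05. In wild-type liver, where 4.99% of all genes fell, 5 of the 13 fell, with a median log2 change of -0.84. Those that fell included Igf1 (-1.34, edgeR adjusted p = 0.000549), Igfals (-1.82, edgeR adjusted p = 0.000738), Socs2 (-2.99, edgeR adjusted p = 0.00137) and Stat5b (-0.84, edgeR adjusted p = 0.00189). Of 18 male-biased genes, 2 rose and none fell with TCPOBOP in humanized liver, and 2 rose and 7 fell in wild-type liver. Of all genes, 1.32% rose and 1.19% fell in humanized liver, and 8.1% rose and 4.99% fell in wild-type liver. Hsd3b5, a male-biased steroid dehydrogenase, had opposite changes of 3.26 in humanized (edgeR adjusted p = 0.0108) and -2.46 in wild-type liver (edgeR adjusted p = 0.00838), with an interaction of 5.73 (edgeR adjusted p = 0.000594). Of 12 tested female-biased genes 1 fell in humanized liver, and 4 rose and 4 fell in wild-type liver, beside the same shares of all genes. Those that rose in wild-type liver were Sult3a1, Cyp3a16, Cyp3a44 and Prom1, of which Prom1 had a log2 change of 3.39 (edgeR adjusted p = 0.000583). Sult3a1, Cyp3a16 and Cyp3a44 had 660, 189 and 483 counts over the wild-type TCPOBOP livers and 2, 9 and 26 over the wild-type vehicle livers. Over the humanized vehicle livers they had 0, 3 and 0 counts, and none over the humanized TCPOBOP livers. They passed the filter on low counts through the group where they were high, so the count of rises depends on that filter.

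The wild-type vehicle library with the most Cyp2b9, replicate 2, was also high for the female-biased genes Cyp2a4 and Cux2. Cyp2a4 was at 92.1 CPM there and at 0.375 to 1.76 CPM in the other vehicle livers. Cux2, a female-biased repressor of male-biased genes, was at 21.7 CPM there and at 0.188 to 0.734 CPM in the others. Not all listed female-biased genes were high in that library. Of the 19 listed, 4 (Cyp3a41a, Cyp3a41b, Sult2a1 and Sult2a2) had no count in any wild-type vehicle liver. Cyp3a16 and Cyp3a44 reached at most 0.455 and 0.951 CPM in that group. In wild-type TCPOBOP replicate 2, which had the most Cyp2b9 of its group, the level of Cyp2a4 was 8.68 CPM, above the 4.49 to 6.45 CPM of the remaining TCPOBOP livers, and Cux2 was at 0.582 CPM. The Y-linked Eif2s3y was detected in all 16 libraries at 17.1 to 84.9 CPM, lowest in wild-type vehicle replicate 2, and Xist was at 0 to 0.622 CPM. Whether the Cyp2b9 of these libraries is related to the other genes was not tested.

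**Figure D5:**
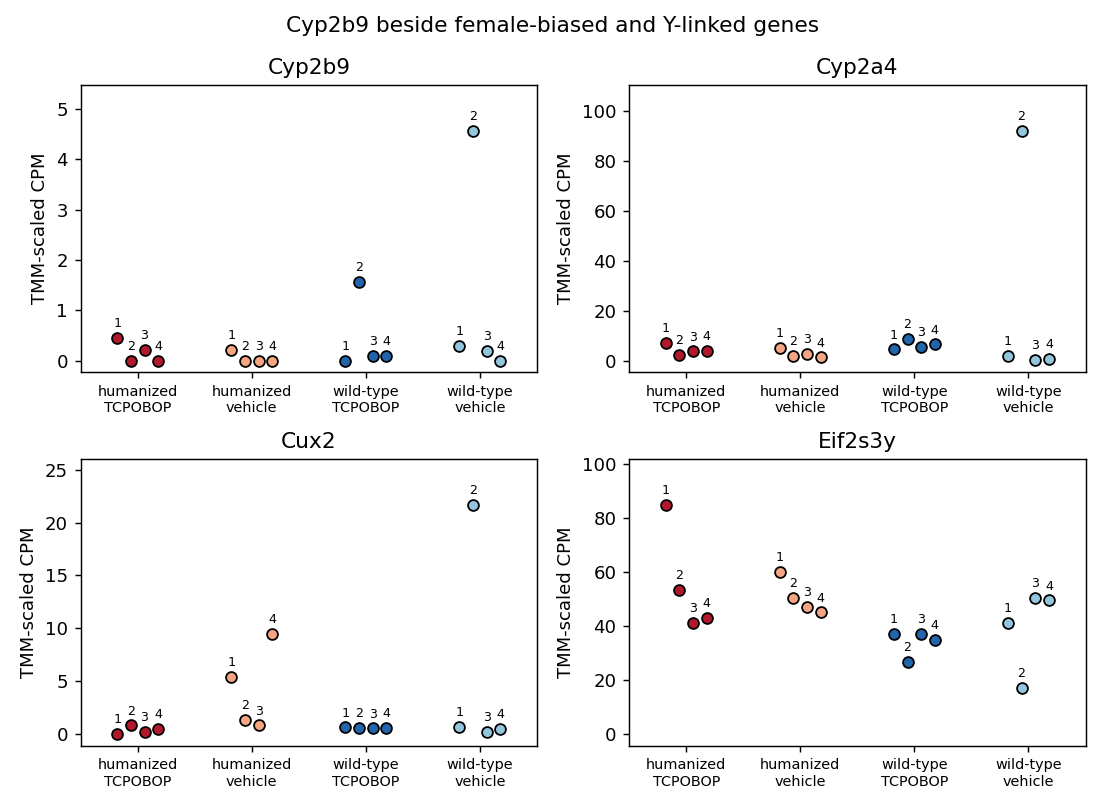
TMM-scaled CPM of Cyp2b9, the female-biased genes Cyp2a4 and Cux2 and the Y-linked gene Eif2s3y in each library, labelled by replicate number. Wild-type vehicle replicate 2 is the highest library for Cyp2b9 (4.57), Cyp2a4 (92.1) and Cux2 (21.7 CPM) and the lowest for Eif2s3y (17.1 CPM).

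As a description over the 16 libraries, the genes whose log2 CPM was most like that of Cyp2b10 were Cyp2c55 (Pearson r = 0.978), Aldh1a7 (0.975), Cyp1a2 (0.965), and the carboxylesterase genes Ces2c (0.960) and Ces2a (0.955). The wild-type TCPOBOP group lies apart in these values, as for Cyp2c55, with 1014 to 1535 CPM in its livers and 6.90 to 41.4 CPM in all other livers. With the group means removed, those most alike over the 16 deviations included Adat2 (r = 0.862), Cnst (0.844), Tmc7 (0.826) and Jam3 (0.814). None of these 4 passed the edgeR test for TCPOBOP in either strain. For Cyp2b13 the most alike in level were Fmo5 (0.903) and Cyp2b10 (0.894), and for Cyp2b9 they included Cic (0.868) and Cdc42bpg (0.864). These values rest on few counts. The libraries share depth and composition, and in each case genes among the most alike of all tested were taken.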

How the data were processed

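Polyadenylated liver RNA was sequenced from 16 mice in 4 groups of 4. The deposited table holds counts for 40458 RefSeq transcript accessions, and the submitters' processing notes name STAR, DESeq2 and mm10 without versions. The labels do not state the counting program, strandedness or the treatment of multiply mapped reads. Even values made up 74.9% of counts from 20 upward. Halving with rounding to even numbers would give 75%, so the counts may be halved values.

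Accessions were joined to symbols through RefSeq (40219) or GENCODE (125), 114 stayed unnamed, and the accession with the highest mean count stood for each gene. All 16 libraries were fitted in edgeR 4.0.16 (R 4.3.3) with filterByExpr, TMM, 1 mean per group and two-sided quasi-likelihood tests, at 12 residual degrees of freedom. P-values were adjusted by Benjamini-Hochberg over 12913 genes, with 0.05 as the threshold. CPM are relative to gene-level totals of 6831626 to 22331760 counts. Cyp2b9 and Cyp2b13 did not pass the filter, so their CPM were compared by exact permutation tests instead of the planned edgeR test, and an unfiltered edgeR fit is given beside these. The script was tested on simulated data. The members and gene lists were chosen with earlier results of these data known. The text names the members, the Cyp2 neighbours, up to 4 called genes of each list and comparison with the smallest p, a fixed set that included the receptors, and the 5 genes most like each member, and describes a part of these, with a few items not reported here; Aldh1a1, Cyp2c50 and single markers were named after their values were seen. Replicates were numbered mice whose separate origin is not stated further, so p-values measure the spread between these samples. No 2 libraries of a group were alike within counting noise. Alternatives were DESeq2 1.42.0, other scalings, rows and filters, fewer groups, a replicate block and leaving out libraries.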

Additional observations from a re-analysis of the deposited data

Results flagged for a closer look

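A library standing far from the other 3 of its group was looked for in each group. For normally spread values, chance alone meets this check in about 1 of 20 groups. It was run in each group for the members, the listed neighbours, Nr1i3, Nr1i2, Cux2 and A1bg, where a count exceeded 3. Some flags are therefore to be met by chance, and the rate may not hold for genes with few counts. Cyp2b10 was at 201 CPM in humanized TCPOBOP replicate 3, against 63.3 to 79.7 CPM in the other livers of the group. It was at 23.1 CPM in humanized vehicle replicate 1, against 14.9 to 16.1 CPM in the others. Cyp2b9 was at 1.57 CPM in wild-type TCPOBOP replicate 2, against 0 to 0.0963 CPM, and at 4.57 CPM in wild-type vehicle replicate 2, against 0 to 0.293 CPM. The same wild-type vehicle liver held 92.1 CPM of Cyp2a4, against 0.375 to 1.76 CPM, and 21.7 CPM of Cux2, against 0.188 to 0.734 CPM. Cyp2f2 was at 430 CPM in wild-type TCPOBOP replicate 4, against 770 to 809 CPM in the others.

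The TCPOBOP effect differed between humanized and wild-type liver, by the interaction of the edgeR fit, for Cyp2b10 (log2 -3.45, adjusted p = 0.00141) and for its neighbour Cyp2a5 (log2 -2.07, adjusted p = 0.00706).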

How the results depend on the processing

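Cyp2b10 kept its direction and its side of the threshold under each alternative for TCPOBOP in humanized (log2 2.07 to 2.79) and wild-type liver (5.76 to 6.54), for the interaction (-3.98 to -3.14) and for the strains under TCPOBOP (-5.45 to -4.73). Under vehicle the humanized minus wild-type difference ranged from -1.77 to -0.98 when 1 library was left out, and the call was lost in 5 of these 16 fits. Leaving out 1 library moved the Cyp2b9 difference with TCPOBOP in wild-type liver between -1.24 and 0.278 CPM and between the strains under TCPOBOP between -0.423 and 0.0987 CPM and under vehicle between -1.63 and -0.109 CPM, and the Cyp2b13 strain difference under TCPOBOP between -0.214 and -0.141 CPM. Without both wild-type libraries numbered 2, an alternative chosen after seeing the data, the Cyp2b9 strain difference under TCPOBOP reversed to 0.100 CPM (exact permutation p = 0.629), and the Cyp2b13 difference with TCPOBOP in wild-type liver was 0.198 CPM with an exact permutation p of 0.1, the smallest that 3 against 3 allows. Summing the 5 Cyp2b genes, also chosen after seeing the data, changed no Cyp2b10 call.

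The number of genes called for TCPOBOP in humanized liver was 325, and it was 765 by DESeq2, 182 with only the 2 groups in the fit, 209 with the replicate block and 658 without both wild-type libraries numbered 2. The interaction had 963 calls, 1481 by DESeq2 and 1462 without both of those libraries. Leaving out 1 library gave 74 to 960 calls for TCPOBOP in humanized liver, 1068 to 2190 in wild-type liver, 575 to 1782 for the interaction, 621 to 3425 for the strains under vehicle and 1963 to 4163 under TCPOBOP. The causes were not tested. Replicate numbers were not taken to pair the samples, since the labels name no shared source and no same-numbered pair of humanized livers correlated above 0.1. Deviations of same-numbered livers correlated at r = -0.244 to 0.072 in humanized mice, where 1 of 8 libraries was most alike to its own number. In wild-type mice they correlated at 0.0998 to 0.581, and 4 of 8 were. Between the strains the range was -0.0915 to 0.191 under TCPOBOP (4 of 8) and -0.127 to 0.005 under vehicle (0 of 8). Whether same-numbered wild-type livers share an origin was not tested. With the replicate block the Cyp2b10 log2 changes were 2.41 in humanized and 6.21 in wild-type liver, -3.80 for the interaction, -1.28 between the strains under vehicle and -5.08 under TCPOBOP, and no Cyp2b10 call changed. Depth limits Cyp2b9 and Cyp2b13, for which 3 counts over a group equal 0.0362 to 0.0933 CPM.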
